A study of Mus musculus with 60 samples.

Results

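The genes of oxidative phosphorylation were followed through a mouse model of the CD74-NRG1 fusion oncogene. Members were chosen by symbol: the nuclear genes named as subunits of complex I (Nduf), complex III (Uqcr), complex IV (Cox4 to Cox8) and complex V (Atp5), together with the 13 protein-coding genes of the mitochondrial DNA. This gave 91 members (78 nuclear and 13 mitochondrially encoded) among 46517 genes of the fibroblast table and 93 members (80 nuclear and 13 mitochondrially encoded) among 54838 genes of the tissue table. The rule uses gene symbols only.

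The respiratory chain passes electrons from NADH through complexes I, III and IV to oxygen, and the proton gradient made on the way drives ATP synthase (complex V). Most subunits are encoded in the nucleus and imported, while a small core set is transcribed inside the organelle from its own circular DNA, so each of these complexes needs both genomes. Striated muscle, heart, kidney and liver are known for high respiratory capacity, and muscle uses its own isoforms of several complex IV subunits.

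The study measured 60 libraries of mouse RNA by QuantSeq, which reads the 3′ ends of transcripts, so that counts are tags per transcript and are not divided by length. All tissues and tumours came from mice of the line Rosa26CD74-NRG1/Flp, in which a Flp deleter has removed an FRT-flanked stop cassette in front of the fusion and the transgene is active nearly everywhere; the normal tissues therefore carry the active fusion too. The tumour groups were sarcoma (7 libraries from 6 mice), liver tumour (3 mice) and intestine tumour (2 libraries from 1 mouse). The normal tissues were muscle (6), liver (8), lung (7), spleen (6), brain (2) and kidney (1), cut from fresh frozen tissue, with several mice giving more than 1 tissue. Mouse embryonic fibroblasts (MEFs), cultured primary cells, came from 9 embryos, at passage 3 and passage 1 by their group labels. There were 3 embryos labelled homozygous (Rosa26FSF.CD74-NRG1/FSF.CD74-NRG1), 3 heterozygous (Rosa26FSF.CD74-NRG1/Flp) and 3 negative (Rosa26Flp/Flp).

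Library totals were 3107561 to 5511793 counts for MEFs and 4837536 to 10089637 for tissues. The labelled tissues carried their own markers: 8 lung epithelium genes summed to 22870.9 to 79270.5 CPM (counts relative to the total of the library) in lungs and 12 hepatocyte genes to 50395.6 to 82030.1 CPM in livers. Sarcomas held 8 fibroblast genes at 7771.4 to 31875.6 CPM and 6 Schwann cell genes at 2188.4 to 5355.6 CPM. The 6 intestinal epithelium genes summed to 4.9 to 5.2 CPM in both intestine tumour libraries, with 2 of the 6 at 0, while 8 lymphocyte genes summed to 1163.5 to 1591 CPM there. Some libraries stood apart. In lung replicate 2, 16 of 76 nuclear members were more than 2-fold above and 12 more than 2-fold below the median of the other lungs. In sarcoma replicate 2, 41 of 72 nuclear members were more than 2-fold below the median of the other sarcomas. Nrg1, measured as a check of the transgene, set 2 embryos apart from the others with their label. Embryo 1, labelled negative, had 147 CPM at passage 3 and 132 CPM at passage 1, where embryos 5 and 8 had 0.49 to 1.57 CPM. Embryo 3, labelled homozygous, had 1.28 and 0.64 CPM, where embryos 7 and 10 had 84.9 to 158 CPM. The homozygous genotype as written names no Flp allele and the negative one no fusion, so these groups also differ in Flp. Which Nrg1 level the homozygous label predicts is not settled here.

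The question set by the tissue panel was how the 2 genomes contribute in each tissue. Summed over all nuclear members, 3′ end counts were highest in muscle, with 21311 to 28823 CPM, and kidney, with 20991 CPM in its 1 library. Brain (15666 and 15437 CPM) and liver (9488 to 15558 CPM, median 14530) came next, and liver overlapped neither muscle nor kidney. The 3 lower groups overlapped one another: sarcoma had 4518 to 11029 CPM (median 8719), lung 6611 to 10033 CPM (median 7188) and spleen 6225 to 8020 CPM (median 7271).

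The mitochondrially encoded sum followed a different order at the low end. It was 154051 to 239974 CPM in muscle, 200669 CPM in kidney, 108141 and 118270 CPM in brain, and 48128 to 148535 CPM in liver. Lung followed with 49207 to 79449 CPM, sarcoma with 29275 to 48673 CPM and spleen with 20838 to 30759 CPM. Every lung lay above every sarcoma in this sum, although their nuclear sums overlapped. These sums add the counts of annotated nuclear copies of mitochondrial DNA that are more than 99% identical to 7 of the genes, because the deposited counts had placed almost all mt-Co3 reads under the copy Gm28437 (median 5565 CPM in tissues, beside 83.5 CPM under mt-Co3 itself).

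The ratio of the mitochondrial to the nuclear sum does not depend on how libraries are scaled to each other. It was 6.63 to 8.47 in muscle, 5.89 to 11.2 in lung, 4.00 to 9.55 in liver, 9.56 in kidney and 6.90 and 7.66 in brain. It was lower in spleen, at 2.95 to 4.67, and sarcomas lay between 2.65 and 6.80. The highest sarcoma, replicate 2, lay inside the muscle range, and the other 6 sarcoma libraries lay below every muscle. MEFs stood far from all tissues at 0.385 to 0.606: their nuclear sum, 9521 to 10516 CPM, was inside the tissue range, while their mitochondrial sum was only 3740 to 6315 CPM. The MEF and tissue tables come from separate quantifications, so this contrast is a description without a test.

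**Figure D1:**
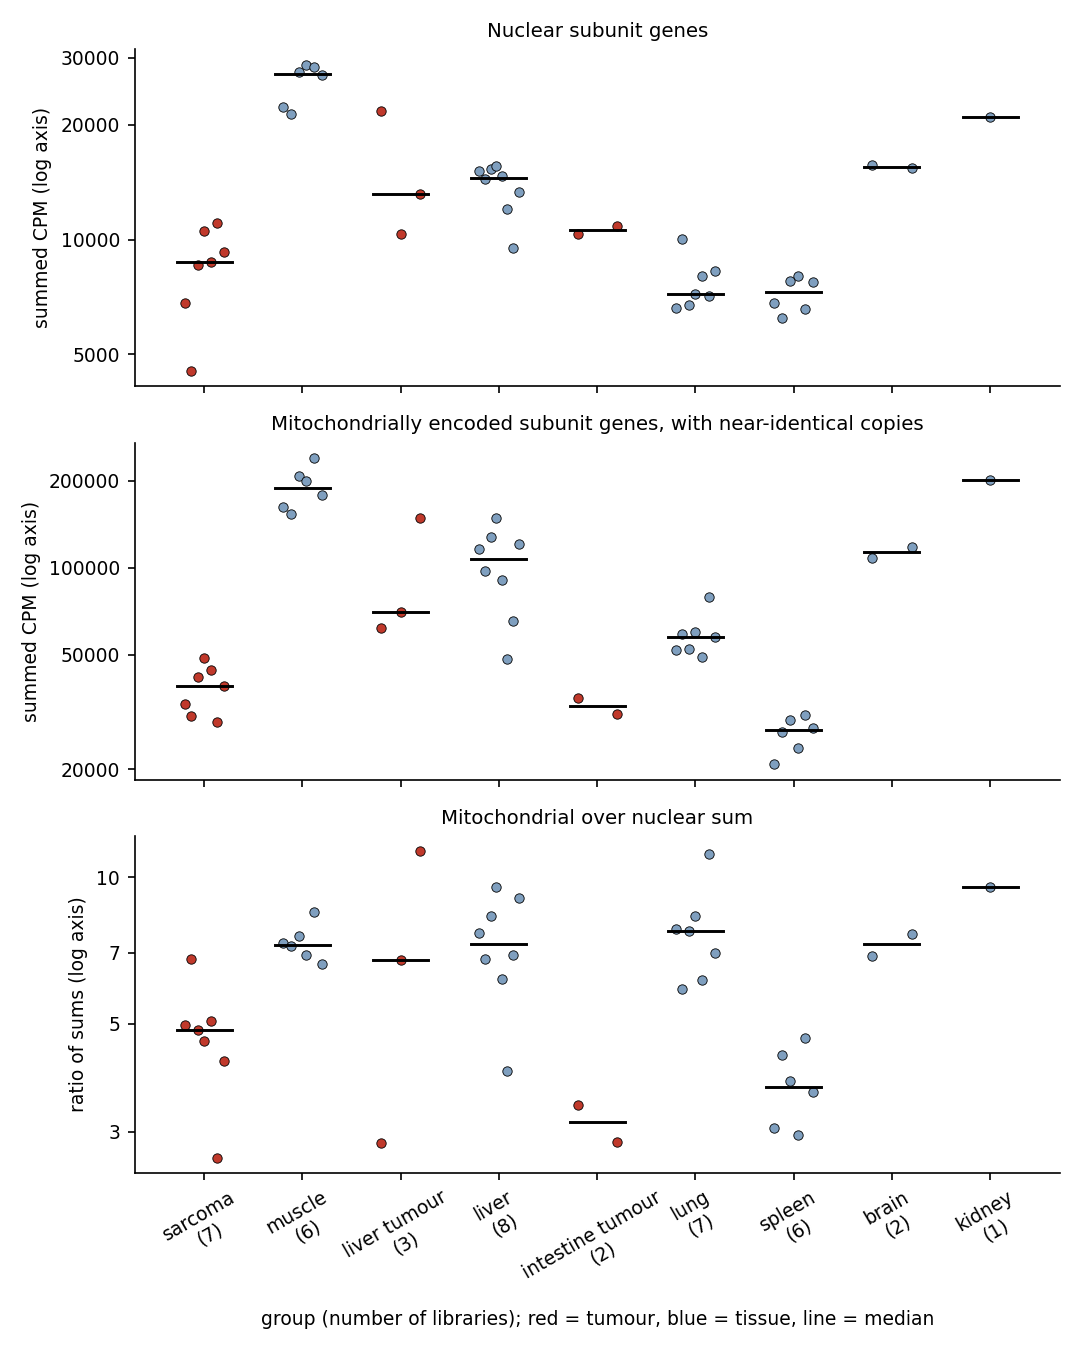
Summed 3′ end counts of nuclear members (top, CPM), of mitochondrially encoded members with their near-identical copies (middle, CPM) and the ratio of the sums (bottom), on log axes, 1 point per tissue or tumour library, with a line at the group median and tumours in red. Muscle had the highest sums among the groups with 3 or more libraries, and the lowest ratio, 2.65, was that of a sarcoma.

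Across the 5 tissue groups with at least 6 libraries (sarcoma, muscle, liver, lung and spleen), 71 of the 76 nuclear members with a group median of at least 5 CPM had their highest median in muscle, 3 in liver, 1 in lung and 1 in spleen. The lowest median fell in spleen for 36 and in lung for 31. Of the 13 mitochondrially encoded genes, 12 were highest in muscle and all 13 were lowest in spleen. The other gene was mt-Co3, of which most reads lie under its copy; with the copies added all 13 were highest in muscle. The highest group median was 1.63 to 1150 times the lowest among nuclear members, with a median of 4.19. Among the mitochondrial genes with their copies it was 4.43 to 12.6 times, with a median of 7.72.

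Uqcrc2, a core protein of complex III, had 270 to 344 CPM in muscle (median 323), 274 CPM in kidney and 106 to 209 CPM in liver (median 172). Below these came sarcoma with 60.5 to 120 CPM (median 90.6), lung with 77.7 to 111 CPM (median 86.6) and spleen with 67.2 to 90.8 CPM (median 73.4), and these 3 ranges overlapped. Cox5a, a nuclear subunit of complex IV, gave 514 to 744 CPM in muscle, 216 to 331 CPM in liver and 115 to 185 CPM in spleen. Lung, at 96.3 to 229 CPM, and sarcoma, at 60.2 to 170 CPM, overlapped with spleen, and sarcoma had the lowest median, 113 CPM. The mitochondrial gene mt-Nd4, a membrane subunit of complex I, had medians of 34645 CPM in muscle, 20491 in liver, 11345 in lung, 6482 in sarcoma and 4485 in spleen. In MEFs the same gene was at 332 to 603 CPM.

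The complexes were not weighted alike in every group. Subunits named for complex I took 31.7 to 33.6% of the nuclear sum in sarcomas, against 27.7 to 28.1% in muscles, and those of complex IV took 21.4 to 24.0% in sarcomas, against 25.9 to 26.8% in muscles, so neither pair of ranges overlapped. The muscle isoforms Cox6a2, Cox7a1 and Cox8b enter the complex IV and nuclear sums. Their medians were 1319, 449 and 436 CPM in muscles, against 9.41, 4.35 and 1.81 CPM in sarcomas. Shares without these isoforms are not given, so neither difference in shares can be read as one of the other subunits. In liver complex III took 13.0 to 14.1% of the nuclear sum. In MEFs it took 12.3 to 13.4% and complex V 34.8 to 37.2%.

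The normal tissues were tested in 1 fit with edgeR's quasi-likelihood test, p-values being adjusted by Benjamini-Hochberg over all genes tested. Muscle was set against the mean of liver, lung and spleen. There 74 of 77 nuclear members tested were higher and 2 lower, with a median log2 difference of 1.81, and 12 of 13 mitochondrial genes were higher, with a median of 2.17. Of all 16871 genes tested, 57% were called, 27.1% higher and 29.9% lower, with a median of -0.12. The 2 nuclear members lower in muscle were Cox6a1, the general isoform of subunit 6A, by -0.83 ± 0.17 (SE, adjusted p = 0.00016), and Cox6b2, the testis isoform of subunit 6B, by -1.47 ± 0.34 (adjusted p = 0.00047).

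The members with the largest muscle differences were Cox8b, Cox6a2 and Cox7a1, the muscle isoforms of 3 small complex IV subunits. Cox6a2 had 893 to 1820 CPM after TMM scaling in muscle (median 1651), against 6.38 to 67.2 in lung, 3.43 to 5.37 in spleen and 0.75 to 3.87 in liver. No muscle overlapped any other tissue. The log2 difference was 8.02 ± 0.34 for Cox6a2 (adjusted p = 3.2e-18), 7.71 ± 0.32 for Cox7a1 (2.6e-18) and 8.17 ± 0.41 for Cox8b (1.8e-16). Atp5g1, one of the genes that encode the identical mature c subunit of the ATP synthase ring, was next with 2.72 ± 0.16 (adjusted p = 1.6e-14).

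Liver against the mean of lung and spleen gave 71 higher and 3 lower of 77 nuclear members (median 1.82) and 12 higher of 13 mitochondrial genes (median 2.24), beside 71.9% of all genes called (30.8% higher and 41.1% lower), with a median of -0.29. Liver did not overlap with lung and spleen for 57 nuclear and 6 mitochondrial members, as for 20.6% of all genes. Uqcrq, a small ubiquinone-binding subunit of complex III, had 636 to 968 scaled CPM in liver, against 50.9 to 85.4 in lung and 56.9 to 135 in spleen. Every liver was above every lung and spleen, and the log2 difference was 3.32 ± 0.15 (adjusted p = 7.8e-18). The next were mt-Nd2 (2.76 ± 0.30), Ndufa4 (2.73 ± 0.19), which is named for complex I but was later assigned to complex IV, and Uqcr11 (2.65 ± 0.21), a small complex III subunit. The 3 lower members were isoforms: Cox6b2 (-4.72 ± 0.37), Cox4i2 (-4.04 ± 0.56), which is known as the lung isoform of subunit 4, and Cox6a2 (-2.33 ± 0.41). Cox4i2 made up 5.16 to 13.3% of the summed Cox4i1 and Cox4i2 counts in lungs and at most 1.94% in every sarcoma, liver, spleen and muscle library.

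Sarcoma was compared with muscle because several mice gave both. Counts of both sarcomas from mouse M00245 were added together, which left 6 sarcomas and 6 muscles, 4 mice giving both. Members of both genomes were lower in sarcoma almost without exception: 74 of 77 nuclear members tested fell and 0 rose, with a median log2 fold change of -2.59, and 11 of 13 mitochondrial genes fell, with a median of -3.21. Of all 14697 genes tested, 64.9% were called and 31.4% were lower, with a median of 0.06. In bulk tissue, fewer cells of a type and less RNA per cell cannot be told apart.

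Uqcrc2 had 51.4 to 84.4 scaled CPM in sarcomas (median 57.7), against 339 to 528 in muscles (median 456). The groups did not overlap, and the log2 fold change was -2.83 ± 0.18 (adjusted p = 3.6e-08). Cox5a had 56.9 to 119 scaled CPM in sarcomas (median 68.2), against 645 to 1115 in muscles (median 1036), again with no overlap and a change of -3.62 ± 0.24 (adjusted p = 4.2e-08). For mt-Nd4 the sarcomas held 3469 to 6061 scaled CPM (median 4498) and the muscles 38226 to 69967 (median 45256). All sarcomas were below all muscles, by -3.42 ± 0.28 (adjusted p = 2.1e-07).

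By complex, all 36 nuclear subunits named for complex I fell (median -2.38), with the smallest change in Ndufa2, an accessory subunit, at -1.34 ± 0.15 (adjusted p = 4.7e-06). All 8 of complex III fell (median -2.87) and all 17 tested of complex V fell (median -2.62). Complex IV was uneven: 13 of 16 fell, and its changes ran from -6.58 to 0.32. Among the mitochondrial genes mt-Nd2, another complex I subunit, changed by the most, -4.04 ± 0.31 (adjusted p = 1.3e-07), with 2403 to 3964 scaled CPM in sarcomas, against 34998 to 74890 in muscles. For mt-Co1, a catalytic subunit of complex IV, counted without its copy Gm29216, the sarcomas held 500.05 to 746 scaled CPM and the muscles 5255 to 10956, a change of -3.72 ± 0.26. With the copy added, sarcomas had 2222 to 4136 CPM (median 2569), against 6131 to 10180 CPM in muscles (median 7697), before TMM scaling. Without the copy these medians were 960 and 6807 CPM, so the difference was smaller with it. The complex I genes mt-Nd1 and mt-Nd6 changed by -3.00 ± 0.25 and -3.21 ± 0.26, with no overlap either. The 2 mitochondrial genes not past the threshold were mt-Nd4l and mt-Co3, whose reads the deposited counts divide with near-identical copies. A total of 72 nuclear and 11 mitochondrial members had groups that did not overlap, as had 43.3% of all genes.

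**Figure D2:**
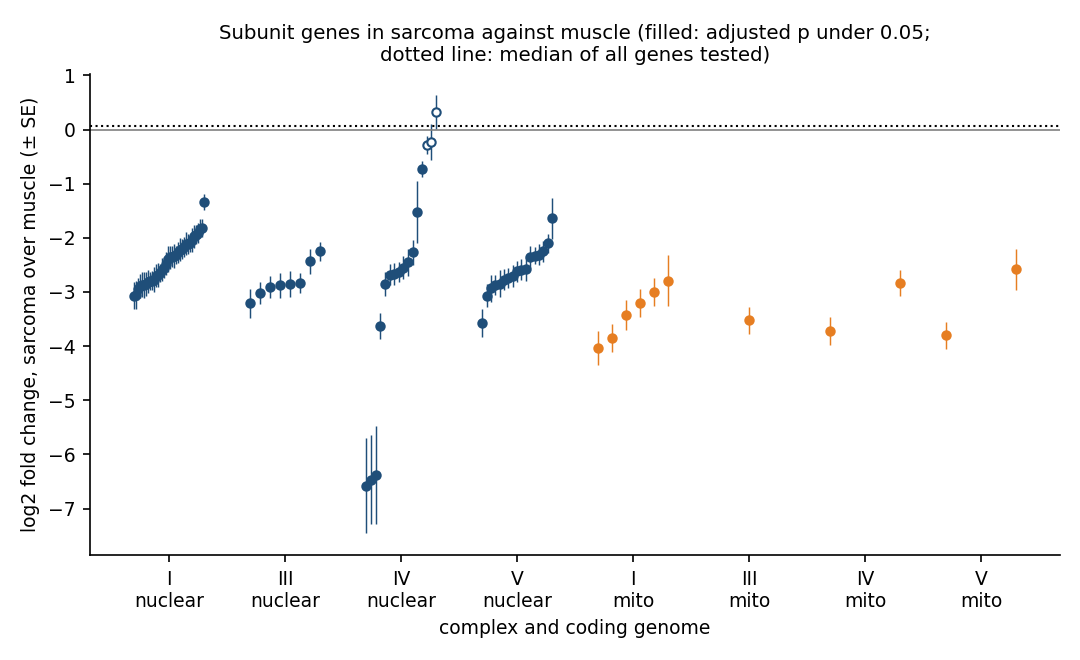
Log2 fold change of each member, sarcoma over muscle, with its SE, grouped by complex and genome; filled points passed an adjusted p of 0.05 and the dotted line is the median of all genes, 0.06. Points for complexes I, III and V lie together below -1, while complex IV spreads from -6.58 (Cox8b) to 0.32 (Cox6b2); mt-Nd4l and mt-Co3 are not drawn.

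The spread within complex IV followed the isoforms. Cox8b had 0.71 to 23.3 scaled CPM in sarcomas (median 2.31), against 259 to 710 in muscles (median 648), and changed by -6.58 ± 0.88 (adjusted p = 2.1e-05). Cox7a1 had 0.47 to 26.9 scaled CPM in sarcomas, against 399 to 805 in muscles, and changed by -6.47 ± 0.82 (adjusted p = 1.2e-05). Cox6a2 had 1.42 to 86.1 in sarcomas, against 1039 to 2201 in muscles, and changed by -6.38 ± 0.90 (adjusted p = 3.1e-05). In all 3 the highest sarcoma stayed far below the lowest muscle.

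Their general partners changed less. Cox6a1 had 103 to 206 scaled CPM in sarcomas, against 151 to 234 in muscles. These ranges overlapped, and the change was -0.28 ± 0.17 (adjusted p = 0.18). Cox8a, the general subunit 8, had 118 to 203 in sarcomas, against 251 to 318 in muscles, and changed by -0.73 ± 0.14 (adjusted p = 0.00053), although its change was 0.25 with libraries scaled to their total counts. Cox7a2, the general subunit 7A, changed like the other complex IV genes, by -2.55 ± 0.21. The other 2 complex IV genes not past the threshold were low in both groups: Cox4i2 with 0.88 to 1.74 scaled CPM in sarcomas, against 1.00 to 2.54 in muscles, and Cox6b2 with 2.12 to 4.16 in sarcomas, against 1.49 to 4.24 in muscles.

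Expressed as a share of each isoform pair, Cox6a2 took 0.262 to 35.2% of Cox6a1 plus Cox6a2 counts in sarcomas (median 3.46%), against 81.6 to 93.6% in muscles (median 91.1%). Cox7a1 took 0.551 to 19.5% of its pair in sarcomas, against 46.1 to 54.2% in muscles, and Cox8b took 0 to 12.2% in sarcomas, against 46.0 to 73.9% in muscles. The highest sarcoma shares of all 3 came from replicate 4, with 123 CPM of Cox6a2, 38.4 CPM of Cox7a1 and 33.2 CPM of Cox8b. The same library had the highest sum of 16 striated muscle fibre genes among sarcomas, 4964.6 CPM, where the other 6 had 33.8 to 1900.5 CPM and the muscles 17681 to 32325 CPM; the part of residual muscle in these values was not tested. MEFs had no Cox8b count in any of 18 libraries, and Cox6a2 was at most 2.04% of its pair.

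**Figure D3:**
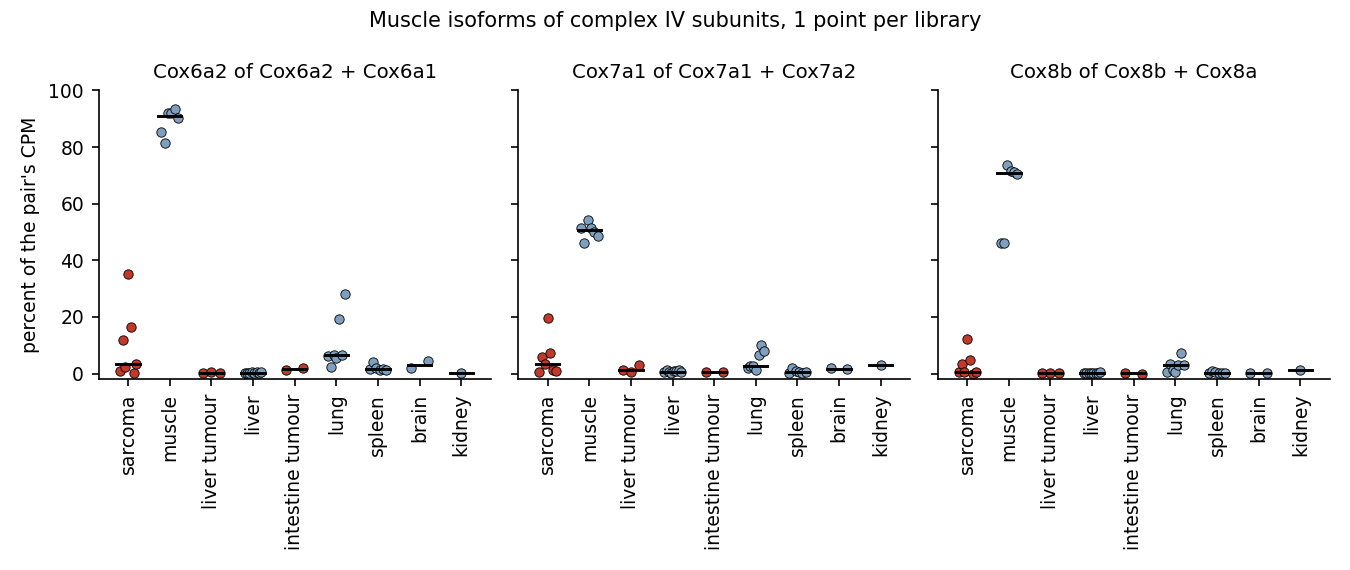
Share of the muscle isoform in the summed 3′ end counts of its isoform pair (percent), 1 point per library by group, for Cox6a2, Cox7a1 and Cox8b. Muscles sit between 81.6 and 93.6% for Cox6a2, above every other library, and the highest sarcoma point in each panel is replicate 4.

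Promoters were read from RefSeq (GRCm38.p6, 250 bases before to 50 after the start), where 60 of 81 nuclear members, Cox6a2 not among them, matched an entry, and searched on both strands. The sequences below show the windows around matches, on the strand of the gene with the motif in capitals, because Cox8a and Cox8b, the isoforms of a pair, differed in their letters here. Cox6a1, Cox8a and the core subunit Uqcrc1 held motifs named for NRF1 (GCGC and TGCGC with 1 free base between them) or ETS factors (CCGGAAGT), which are known to act on respiratory chain genes, while Cox8b held an E-box (CAGCTG), the kind of site bound by myogenic factors.
Cox6a1, chr5:115349102-115349129, minus strand: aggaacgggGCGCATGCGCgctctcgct
Cox8a, chr19:7217604-7217631, minus strand: ttccgaaatACTTCCGGctcgggcgtcc
Cox8b, chr7:140900447-140900474, minus strand: gacaggagaCAGCTGcagctctccaccc
Uqcrc1, chr9:108936644-108936671, plus strand: ttccttacaGCGCTTGCGCctcagactc
Atp5g3, chr2:73911360-73911387, minus strand: gttacaaagTGACCTTGAgcgtcttccc

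The NRF1 motif was present in 13 of the 60 promoters (21.7%) and in 4.6% of all 32851 promoters, and the ETS motif in 5 (8.3%) and 3.89%. The E-box was in 6 (10%) and in 16.3% of all promoters. Besides Cox8b these members were Atp5b, Ndufa8, Ndufb10, Ndufs5 and Ndufv2, none of them a muscle isoform named above. The motif of the oestrogen-related receptors (TCAAGGTCA) was found once among members, in Atp5g3 as its reverse complement, and in 0.423% of all promoters. The YY1 motif (AAGATGG followed directly by CGGC) was in 4 members (6.7%) and 0.633% of all promoters, and the MEF2 motif (CTAAAAATA) in 0 members and 0.517%. Cox7a1 and its general partner Cox7a2 both had none of these motifs in their windows. A match says only that the letters are there.

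Genes that work with the respiratory chain were counted from 8 lists in the same comparison. All 4 subunits of complex II, which is encoded in the nucleus only, fell (median -2.27), among them Sdhb by -3.05 ± 0.22 and Sdha by -2.14 ± 0.20. All 18 citrate cycle genes fell (median -2.62), such as Idh3a (-3.59 ± 0.19), and 18 of 19 fatty acid oxidation genes fell (median -2.29), such as Acadm (-3.25 ± 0.18). Of the list of inner membrane and electron carriers with some related genes, 11 of 12 fell, with Slc25a4, the ADP/ATP carrier of muscle, at -3.62 ± 0.28 and Cycs, cytochrome c, at -3.10 ± 0.22.

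The machinery that builds the complexes changed by less. The assembly factors gave 27 lower and 0 higher of 33 (median -1.12) and the mitochondrial ribosomal proteins 70 lower and 0 higher of 76 (median -1.11). In the next lists the share called in either direction was near the 64.9% of all genes. Most of their calls were lower, where 31.4% of all genes were lower and 33.6% higher. Of the genes that keep and read mitochondrial DNA, 14 fell and 2 rose of 23 (median -0.71), with Tfb2m, a factor for initiating transcription, at -1.70 ± 0.18. Of 13 regulators of mitochondrial biogenesis 8 fell and 1 rose. The coactivators Ppargc1a (-5.79 ± 0.40), Perm1 (-5.85 ± 0.45) and Ppargc1b (-3.21 ± 0.25) were among those that fell, with Ppargc1a at 1.73 ± 1.20 scaled CPM in sarcomas and 95.1 ± 26.2 in muscles (SD, n = 6 each). The 1 that rose was Nrf1, a transcription factor of nuclear respiratory genes, by 0.63 ± 0.14.

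The scaling of libraries bears on every sarcoma contrast. With libraries scaled to their total counts in place of TMM, the median of all genes moved to 1.03 against muscle, 1.46 against liver, 0.47 against spleen and 0.16 against lung. Against muscle, 71 of 77 nuclear members were still lower under that scaling and 2 were higher, with a median of -1.58, below the shifted median of all genes, and 11 mitochondrial genes were lower, with a median of -2.24.

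Sarcoma was also set against liver, lung and spleen in a fit of 5 tissue groups, so these contrasts share the sarcoma libraries. Against liver, 72 of 77 nuclear members were lower and 4 higher (median -1.90), and 11 of 13 mitochondrial genes were lower (median -2.48), beside 68.8% of all genes called (38.3% higher and 30.6% lower). A total of 69 nuclear and 11 mitochondrial members, counted without copies, did not overlap with liver, as did 42.8% of all genes. With the copy Gm29216 added, mt-Co1 did overlap, at 2222 to 4136 CPM in sarcomas and 1325 to 5011 CPM in livers before TMM scaling. Its medians were then 2569 and 2739 CPM, where those without the copy were 960 and 2329 CPM. Uqcrq had 71.2 to 153 scaled CPM in sarcomas, against 646 to 1095 in livers, without overlap, and changed by -3.06 ± 0.20 (adjusted p = 4.7e-15). The change was -3.52 ± 0.39 for mt-Nd2 (adjusted p = 1.4e-09), -2.18 ± 0.18 for Uqcrc2, -2.66 ± 0.21 for Cox5a and -2.79 ± 0.31 for mt-Nd4. The 4 members higher than in liver were again isoforms, Cox4i2, Cox6a2, Cox8b and Cox6b2, each at a median under 10 scaled CPM in sarcomas, and Cox8b lost its call without sarcoma replicate 4 (adjusted p = 0.32).

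Against lung 2 nuclear members were higher and 5 lower of 77, with a median of 0.01, and 6 of 13 mitochondrial genes were lower and 0 higher, with a median of -0.91. Of all genes 44% were called (20% higher and 24% lower), with a median of 0.02. The mitochondrial share of calls was near that of all genes in either direction, but all 6 calls were lower. With copies added onto the members, 8 mitochondrial genes were lower and their median was -0.69. The medians of the 2 genomes were not tested against each other. The mitochondrial genes called lower were mt-Nd2, mt-Nd3, mt-Nd4, mt-Nd5, mt-Cytb (cytochrome b of complex III) and mt-Atp8 (a complex V subunit). For mt-Cytb the sarcomas held 2148 to 3529 scaled CPM (median 2500) and the lungs 3857 to 9132 (median 4900). No sarcoma reached the lowest lung, and the change was -1.11 ± 0.29 (adjusted p = 0.0023).

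The gene mt-Nd5 behaved alike, with 331 to 474 scaled CPM in sarcomas, against 527 to 1217 in lungs, and a change of -1.06 ± 0.26 (adjusted p = 0.0011). For mt-Nd3 the value rested on lung replicate 2, at 2141 CPM where the other lungs had 138 to 323 CPM; the change was -1.43 ± 0.48 (adjusted p = 0.016) with that library and -0.46 (adjusted p = 0.31) without it. Most reads of mt-Nd3 in the other lungs lie under the copy Gm28438. With the copy added, sarcomas had 778 to 1307 CPM, against 987 to 1944 CPM in the other lungs and 2988 CPM in lung replicate 2, and the change was -0.69 ± 0.27 (adjusted p = 0.035). The call was also lost with the mouse as a block (adjusted p = 0.051). The nuclear members called lower were led by the isoforms Cox4i2, with 0.82 to 1.61 scaled CPM in sarcomas, against 6.70 to 17.7 in lungs (-3.09 ± 0.42, adjusted p = 2.4e-07), and Cox6b2, with 1.98 to 3.87 in sarcomas, against 7.06 to 16.7 in lungs (-2.11 ± 0.34, adjusted p = 4.3e-06). Neither pair of ranges overlapped. Uqcrq (0.50 ± 0.18, adjusted p = 0.028) and Atp5o, the peripheral stalk subunit OSCP (0.44 ± 0.18, adjusted p = 0.048), were higher in sarcomas with overlapping ranges. The call of Uqcrq was lost without lung replicate 1 or 3 or sarcoma replicate 4 or 5 (adjusted p of 0.051 to 0.11), and that of Atp5o when most single samples were left out (0.051 to 0.2). Under total count scaling 12 nuclear members were higher and 4 lower, so the direction of the nuclear calls turns with the scaling, while the mitochondrial median was -0.77.

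Against spleen 4 of 77 nuclear members were higher and 11 lower, with a median of -0.19, and 0 mitochondrial genes were called, with a median of -0.04, beside 52.3% of all genes called (27.3% higher and 25% lower) and a median of 0. At an unadjusted p under 0.05, 0 of the mitochondrial genes passed either. Cox6b2 had 1.98 to 3.87 scaled CPM in sarcomas, against 6.92 to 56.8 in spleens, and changed by -3.30 ± 0.36 (adjusted p = 2.4e-09). Cox5a (-0.92 ± 0.20, adjusted p = 0.00028), Cox6a1 (-0.77 ± 0.20, 0.0018) and Uqcrh, the hinge protein of complex III (-0.74 ± 0.16, 0.00023), were lower, each with overlapping ranges. Without spleen replicate 2, 22 nuclear members were called, and the share of all genes called in that fit is not given here.

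The members higher than in spleen were Cox4i2, Cox6a2, Cox7a1 and Cox8b, and for Cox6a2 (2.09 ± 0.64, adjusted p = 0.0061) and Cox8b (2.65 ± 0.78, 0.005) the call was lost without sarcoma replicate 4 (adjusted p of 0.27 and 0.16). Under total count scaling 18 nuclear members were higher and 1 lower and 3 mitochondrial genes were higher than in spleen, so the nuclear direction turns with the scaling. Genes of red cell precursors summed to 529.7 to 3132.2 CPM in sarcomas, against 131133 to 251747 CPM in spleens and 15849 to 84926 CPM in lungs, and the part this large share of counts has in these contrasts was not tested.

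**Figure D4:**
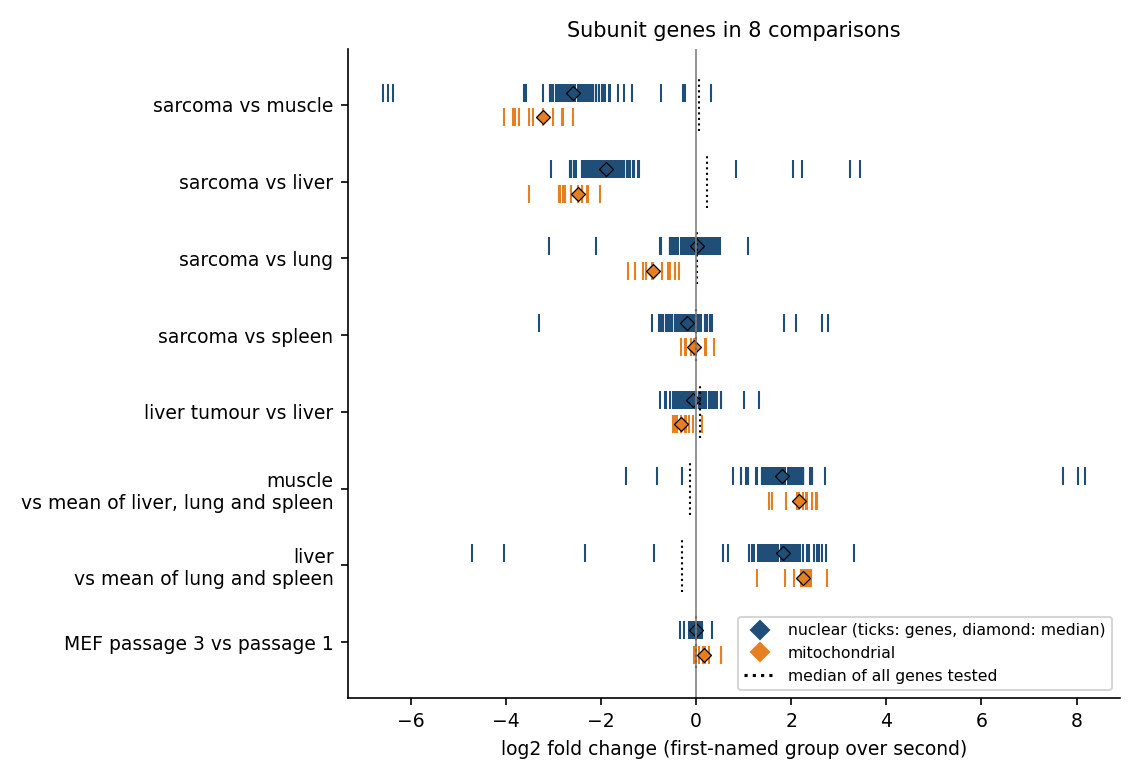
Log2 fold changes of nuclear and mitochondrially encoded members in 8 comparisons, 1 tick per member (mt-Nd4l and mt-Co3 not drawn), with diamonds at the median of each genome. The mitochondrial median lies below the nuclear median in sarcoma against muscle (-3.21 and -2.59), liver (-2.48 and -1.90) and lung (-0.91 and 0.01), and both lie near 0 against spleen.

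In mice that gave both tissues, the mitochondrial to nuclear ratio was lower in the sarcoma than in the muscle each time. It was 4.86 in the sarcoma and 7.32 in the muscle of mouse M00237, 4.62 and 7.23 in M00238, and 4.20 and 8.47 in M00248. In M00245 the 2 sarcoma libraries gave 5.07 and 2.65, and the muscle 7.56. The lungs of these 4 mice gave 5.89 to 11.2 and were likewise above the sarcomas of the same mouse. Livers of 6 mice gave 6.19 to 9.55 and were above the sarcoma in 5, while in M00236 the sarcoma had 6.80 and the liver 6.78. Spleens went both ways: the sarcoma had 6.80 and the spleen 3.06 in M00236, the sarcomas 5.07 and 2.65 and the spleen 4.32 in M00245, and the sarcoma 4.20 and the spleen 4.67 in M00248. No test was made of the ratio.

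Liver tumours showed no member past the threshold against liver. Of 74 nuclear members and 13 mitochondrial genes tested, 0 were called, beside 10.6% of all genes (6.98% higher and 3.63% lower). Groups overlapped for every member, while 9.68% of all genes did not overlap. At an unadjusted p under 0.05, 3 nuclear members and 0 mitochondrial genes passed, beside 3327 of all 13256 genes, and DESeq2 called 3 nuclear members. Leaving out tumour replicate 1 gave 7 nuclear calls, tumour replicate 2 gave 2, tumour replicate 3 gave 1 and liver replicate 7 gave 3. The share of all genes called with these samples left out is not given here. Replicate 3 has a title that says liver and a group label that says tumour, and the group label was followed. Median log2 fold changes were -0.06 for nuclear and -0.32 for mitochondrial members and 0.09 for all genes. The sums of the 3 tumours were far apart: the nuclear sum was 21787, 10344 and 13148 CPM in replicates 1, 2 and 3, against 9488 to 15558 CPM in livers, and the mitochondrial sum 61930, 70079 and 148589 CPM, against 48128 to 148535 CPM in livers. Replicate 1 was therefore above every liver in the nuclear sum and low in the mitochondrial one.

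The ratio was 2.84, 6.78 and 11.3 in the 3 tumours, against 4.00 to 9.55 in livers, so 1 tumour lay below and 1 above all livers. Hepatocyte genes summed to 27773, 112081 and 56130 CPM in the same tumours; the tumour with the fewest had the highest nuclear sum, and the part of the hepatocyte share was not tested. Cox5a had 367, 161 and 196 scaled CPM in the tumours, against 212 to 347 in livers, and mt-Nd4 had 8056, 10935 and 23061, against 7228 to 37930 in livers. The changes were -0.29 ± 0.26 for Cox5a (adjusted p = 0.53), -0.26 ± 0.30 for Uqcrc2 (0.63) and -0.47 ± 0.52 for mt-Nd4 (0.63). With an SE of 0.52, a change of 2-fold in mt-Nd4 would not have been detectable here.

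The members nearest to the threshold in liver tumours were Atp5g2, with 22.4 to 127 scaled CPM in tumours, against 15.3 to 35.2 in livers (1.32 ± 0.40, adjusted p = 0.053), and Uqcrc1, a core protein of complex III, with 46.6 to 64.7 in tumours, against 46.3 to 109 in livers (-0.75 ± 0.25, adjusted p = 0.077). Both pairs of ranges overlapped, and copies of Atp5g2 held 635.1% of the counts of the gene itself in tissues. In the list of carriers and related genes 3 of 11 were higher in tumours, of which only Slc25a4 is itself a carrier. Atpif1, the inhibitor of the ATP synthase, was at 103 ± 34.6 scaled CPM in tumours (SD, n = 3) and 29.5 ± 7.13 in livers (SD, n = 8), a change of 1.80 ± 0.23 (adjusted p = 0.00061). Ndufa4l2, a paralogue of Ndufa4, rose by 3.10 ± 0.61 (adjusted p = 0.0075) and Slc25a4 by 1.67 ± 0.45 (adjusted p = 0.033). Of all genes 10.6% were called, near the share among the assembly factors and above that among the mitochondrial ribosomal proteins. Of 34 assembly factors 3 were higher (Cox17, Cox19 and Cox14) and 1 lower (Ndufaf4), and of 76 mitochondrial ribosomal proteins Mrpl38 and Mrpl13 were higher. With the mouse as a block, where only 2 mice gave both tissues, 0 of all genes were called, these included. The lists of complex II, citrate cycle, fatty acid oxidation, mitochondrial DNA upkeep and regulators had 0 calls.

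The intestine tumour, from 1 mouse, got no test. Its 2 libraries had nuclear sums of 10325 and 10849 CPM, mitochondrial sums of 35214 and 31018 CPM and ratios of 3.41 and 2.86. Both ratios were inside the range of sarcoma, and 1 lay inside and 1 below that of spleen.

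In MEFs the comparisons asked whether passage or the labelled genotype moves these genes. At passage 3 against passage 1, with 9 embryos each, 0 of 72 nuclear members and 0 of 13 mitochondrial genes passed edgeR's quasi-likelihood test, beside 2.82% of all 12051 genes (1.81% higher and 1.01% lower). At an unadjusted p under 0.05, 5 nuclear and 3 mitochondrial members passed, beside 2113 of all genes. Median changes were 0 and 0.17, and 0 for all genes. The member nearest to the threshold was Ndufv3, a complex I accessory subunit, at 0.33 ± 0.10 (adjusted p = 0.078). None of the 85 members tested had groups without overlap, as had 0.249% of all genes. For mt-Nd4 the range was 385 to 603 CPM at passage 3 (median 505), against 332 to 551 CPM at passage 1 (median 430). The ranges overlapped widely, and the change was 0.15 ± 0.08, beside -0.11 ± 0.06 for Uqcrc2 and -0.05 ± 0.04 for Cox5a. Of the related lists, the mitochondrial ribosomal gene Mrps35 (-0.34 ± 0.08, adjusted p = 0.033) and the citrate cycle gene Idh2 (-0.29 ± 0.07, adjusted p = 0.041) were lower at passage 3.

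Embryos labelled homozygous were compared with those labelled negative at each passage, with 3 embryos in each group. At passage 1, 0 members passed, as did 0% of all genes, and 12 members and 1315 of all genes had an unadjusted p under 0.05. All 13 mitochondrial genes had a positive log2 fold change there, with a median of 0.45, beside 0.03 for nuclear members. The largest values, for mt-Co3 (11.02 ± 6.23), mt-Nd4l (7.80 ± 3.81) and mt-Atp6 (1.83 ± 0.61), were of genes whose reads are divided with near-identical copies. For mt-Co2, a catalytic subunit of complex IV, embryos labelled homozygous had 757, 868 and 868 scaled CPM and those labelled negative 528, 584 and 694. The groups did not overlap, and the change was 0.46 ± 0.12 (adjusted p = 0.29). For mt-Nd4 the values were 435, 551 and 560 in embryos labelled homozygous and 334, 390 and 422 in those labelled negative, a change of 0.43 ± 0.13 (adjusted p = 0.34). In all, 5 mitochondrial genes and 10 nuclear members did not overlap between these groups, as did 13.2% of all genes. Among the 5 was mt-Atp6, whose ranges did overlap once its copy Gm10925 was added. They were then 782.7 to 922.8 CPM in embryos labelled homozygous and 558.5 to 782.9 CPM in those labelled negative. Without embryo 7, 5 mitochondrial genes were called, and without embryos 1 and 3, 1 was called. The share of all genes called in these fits is not given here, so the calls cannot be set against it.

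Cell type markers also differed between these passage 1 libraries. In 2 of the embryos labelled homozygous, 3 and 10, the 8 macrophage genes summed to 42.5 and 53.7 CPM and the 8 fibroblast genes to 4871 and 4264.8 CPM, against 520.6 to 976.4 CPM and 7069.2 to 7935.6 CPM in the embryos labelled negative. Embryo 7, also labelled homozygous, had 837.4 and 7683.4 CPM, and embryo 2, labelled heterozygous, 79.5 and 5284.1 CPM. The mitochondrial sum with copies at passage 1 was 5877 CPM in embryo 3, 6268 in embryo 10, 5227 in embryo 7 and 4904 in embryo 2. In embryos labelled negative it was 3740 to 5134 CPM, so embryo 7 lay above them and embryo 2 among them. Without the passage 1 libraries of embryos 2, 3 and 10, which leaves 1 homozygous library assumed to vary like the others, the mitochondrial median was 0.19 and 0 members were called. The part of the cell mixture in the change was not tested further.

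At passage 3 the median of the mitochondrial genes had the other sign, -0.19, again with 0 members and 0% of all genes called (6 members and 451 genes at an unadjusted p under 0.05), and 6 mitochondrial genes did not overlap beside 9.77% of all genes. For mt-Nd4 the embryos labelled homozygous had 391, 462 and 499 scaled CPM and those labelled negative 519, 524 and 587. Embryos labelled heterozygous against negative gave mitochondrial medians of 0.15 at passage 1 and -0.10 at passage 3, with 0 members and 0% of all genes called, and 1 and 4 members and 316 and 529 genes at an unadjusted p under 0.05.

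By embryo, the mitochondrial sum was higher at passage 3 than at passage 1 in the 3 labelled negative, with 6315 and 5134 CPM in embryo 1, 5263 and 3740 CPM in embryo 5, and 5466 and 4252 CPM in embryo 8. It was also higher in the 3 labelled heterozygous, by log2 differences of 0.07 to 0.33. Among those labelled homozygous it was 4685 CPM at passage 3 and 5877 CPM at passage 1 in embryo 3, 5095 and 6268 CPM in embryo 10, and 5372 and 5227 CPM in embryo 7. Embryos 3 and 10 were those with few macrophage counts at passage 1; at passage 3 these summed to 405.2 and 516.8 CPM, and striated muscle fibre genes in embryo 10 to 15.5 CPM at passage 3 and 406.5 CPM at passage 1. Nuclear sums differed between passages by log2 differences of only -0.10 to 0.06.

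The test of the difference between these passage effects, homozygous minus negative, gave a median of -0.68 for the mitochondrial genes and -0.07 for nuclear members. It called 0 members and 0% of 12051 genes, while 8 mitochondrial genes and 514 of all genes had an unadjusted p under 0.05. Without embryos 1 and 3, whose Nrg1 level differs from that of the others with their label, the mitochondrial median was -0.63. There 1 gene of the 12051 was called (0.0083%): mt-Atp6, a complex V subunit, at -3.92 (adjusted p = 0.039). Its reads are divided between the gene and the copy Gm10925. With copies added the difference of mt-Atp6 was -0.60 ± 0.19, and 0 of 12036 genes were called. Without the passage 1 libraries of embryos 2, 3 and 10, 0 genes were called and the mitochondrial median was -0.44, with 2 mitochondrial genes and 371 of all genes at an unadjusted p under 0.05. The labels of embryo 8 also disagree with each other on its passages, and its group labels were followed. Its library taken as passage 1 is titled passage 2. The one taken as passage 3 is titled passage 1, and its counts are headed E8_p5.

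**Figure D5:**
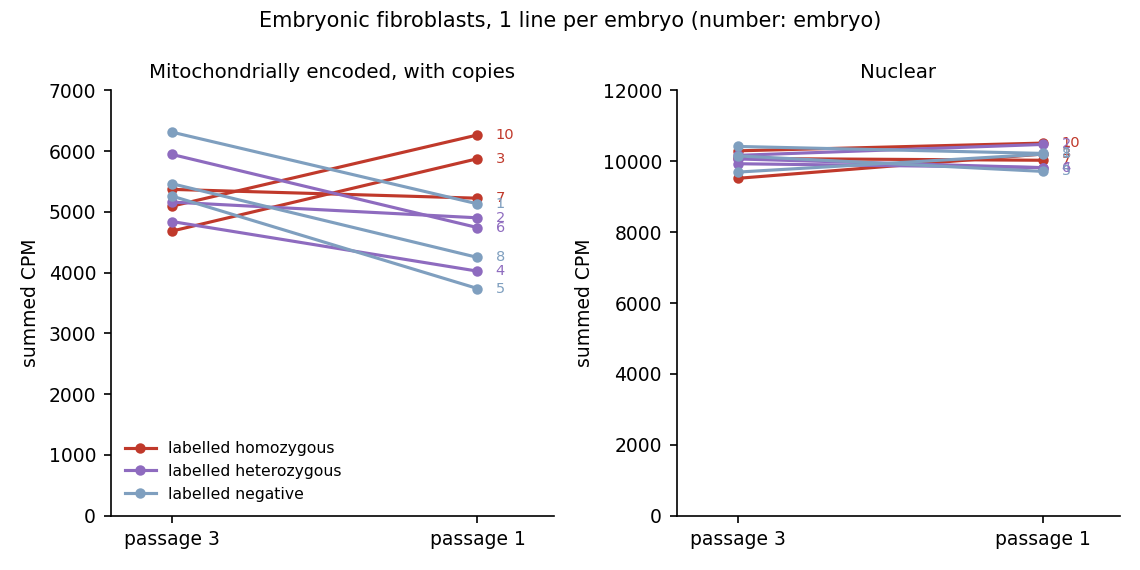
Summed counts of nuclear members and of mitochondrially encoded members with copies (CPM) in MEFs, passage 3 left of passage 1, 1 line per embryo coloured by labelled genotype. The mitochondrial sum is higher at passage 3 in all 6 embryos labelled negative or heterozygous and lower in embryos 3 and 10, while the nuclear sums stay between 9521 and 10516 CPM.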

How the data were processed

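The authors deposited expected counts for each gene, MEFs and tissues in separate tables. Aligner, counter and build: not given in the sources used here. Of the deposited values 6.6% (MEFs) and 8.35% (tissues) were not whole, so the tests, which had been planned for raw counts, were run on counts rounded to whole numbers. Per the labels' protocols, RNA with an integrity number over 8 went into QuantSeq libraries read on a HiSeq4000. The deposited CPM were not used; CPM here are counts scaled to the library total, and scaled CPM use TMM factors. The test was edgeR 4.0.16 (R 4.3.3), quasi-likelihood F test, two-sided, filtered with filterByExpr (minimum count 10), Benjamini-Hochberg adjustment at 0.05; SEs come from the F statistic. It was tested on simulated counts. DESeq2 1.42.0 was an alternative.

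The members and lists were chosen with earlier results of these data known. Named are Uqcrc2, Cox5a and mt-Nd4, the paired isoforms, the mitochondrial genes by value or within ranges and counts, and per comparison up to 4 members with the highest and 4 with the lowest change past the threshold and a mean of at least 20 CPM in the higher group; pathway lists name up to 4 genes with the smallest adjusted p. Genes named as nearest to a threshold, as the smallest change, as the only member of a count or as an example of a list beyond this rule were chosen after their values were seen. Copies were found with BLAST+ 2.17.0 as annotated genes more than 99% identical to a member. Columns left unmapped numbered 0.

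Samples that share an animal are paired by the embryo and mouse labels. Deviations of libraries from the same embryo correlated with a median of 0.12 over 9 pairs, and those of sarcoma and muscle from the same mouse with 0.04 over 4 pairs; the fits with the animal as a block are given with the other alternatives. Replicates of a tissue are different mice, apart from the sarcoma and intestine tumour pairs named above. Every 2 libraries of a group differed by more than sampling noise (smallest chi-square per degree of freedom 2.99). The limit set by a count of 0 is 3 counts and covers counting error only.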

Additional observations from a re-analysis of the deposited data

Results flagged for a closer look

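Among 105 sets of values in groups of 4 to 10 samples, 11 had 1 sample far from the others by Dixon's criterion, of which chance marks about 5%. For sarcomas the 2 libraries of mouse M00245 were averaged.

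In sarcoma replicate 4, Cox6a2 was at 123 CPM (other sarcomas 1.91 to 24.6), Cox7a1 at 38.4 CPM (0.637 to 7.81), Cox8b at 33.2 CPM (0.955 to 6) and mt-Nd4 at 8652 CPM (5618 to 6508). The same library held the most counts of striated muscle fibre genes among sarcomas, 4964.6 CPM. In sarcoma replicate 2 the mitochondrial to nuclear ratio was 6.8, where the other sarcomas had 3.86 to 4.96, and its nuclear sum, 4518 CPM, was the lowest of all tissue libraries. The gap of this ratio was 0.625 of the range, at the critical value of 0.625. Counted apart, the 2 libraries of mouse M00245 had 7959 and 3277 CPM of mt-Nd4 and ratios of 5.07 and 2.65, outside the averaged ranges given here.

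In lung replicate 2, mt-Nd3 was at 2141 CPM (other lungs 138 to 323; with its copy Gm28438 added, 2988 CPM and 987 to 1944 CPM) and Cox6a1 at 435 CPM (221 to 267). In lung replicate 6, the mitochondrial sum was 79449 CPM (49207 to 59810) and Cox8b 22.6 CPM (1.01 to 9.73). In spleen replicate 2, Cox6a1 was at 196 CPM (272 to 309). In liver replicate 7, Uqcrq was at 474 CPM (550 to 617).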

How the results depend on the processing

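Each result was recomputed with DESeq2, relative log expression scaling, no filter on low counts, a filter at a mean of 5 CPM, totals without mitochondrial genes, the 2 sarcomas of mouse M00245 handled otherwise, the animal as a block, all tissue groups in 1 fit, omission of embryos 1 and 3 and leaving out each embryo or sample. Total count scaling, copies summed onto members, omission of the passage 1 libraries of embryos 2, 3 and 10 and the test of the difference between passage effects were added after the data had been seen.

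Counts of called members moved by more than 1.5 times, or from 0, as follows, given with the ranges for samples left out. Shares of all genes called with single samples or embryos left out are not given beside them. For MEF passage, 1 mitochondrial gene was called with no filter, and leaving out embryos gave 0 to 1. For homozygous against negative at passage 1, DESeq2 called 1 mitochondrial gene, the fit without embryos 1 and 3 called 1, and leaving out single embryos gave 0 to 5 (5 without embryo 7). For heterozygous against negative at passage 1 the fit without embryos 1 and 3 called 1 and leaving out embryos gave 0 to 1. For liver tumours, nuclear calls numbered 3 with DESeq2, 1 with no filter, 1 with total count scaling, 2 with all tissue groups in 1 fit and 0 to 7 when single samples were left out (7 without tumour replicate 1). For sarcoma against lung, nuclear calls numbered 4 with no filter, 16 with total count scaling and 5 to 8 with samples left out. For sarcoma against spleen, nuclear calls numbered 11 to 22 with samples left out (22 without spleen replicate 2), and mitochondrial calls 3 with total count scaling and 0 to 1 with samples left out. For sarcoma against muscle, samples left out gave 73 to 74 nuclear and 11 to 12 mitochondrial calls, and in the other tissue contrasts nuclear calls ran from 74 to 77 and mitochondrial calls from 11 to 12, with 6 to 7 mitochondrial calls against lung. The cause was not tested.

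With the animal as a replicate block, sarcoma against muscle had 73 nuclear and 13 mitochondrial genes lower, sarcoma against lung 3 higher and 4 lower nuclear members and 5 lower mitochondrial genes, and sarcoma against spleen 4 higher and 8 lower nuclear members; MEF passage and liver tumours had 0 members called, and liver tumours 0 of all genes, where the fit without the pairing called 1406. MEF passage calls over all genes numbered 4 without embryos 1 and 3 and 590 with DESeq2, against 340.

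Recomputed singly were Uqcrc2, Cox5a, mt-Nd4, the paired isoforms past the threshold and the members named by the rule above. Among these, 4 values changed sign with total count scaling: Cox8a in sarcoma against muscle (0.25), Uqcrc2 (0.19) and Cox4i1 (0.01) in sarcoma against spleen, and Atp5g2 in sarcoma against liver (0.05). Cox6a1 in sarcoma against muscle, not past the threshold, was not recomputed in this way. Leaving out embryos turned 6 small values: Uqcrc2 ran from -0.02 to 0.11 and -0.08 to 0.08 in homozygous against negative at passages 1 and 3, Cox5a from -0.06 to 0.02 and -0.02 to 0.10, and Uqcrc2 from -0.03 to 0.10 and -0.12 to 0.03 in heterozygous against negative. Over all alternatives, recomputed values of named genes lost their call 32 times in sarcoma against lung, 20 times in sarcoma against spleen, 8 times in muscle against the other tissues and 1 time each in sarcoma against muscle and against liver.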
